A study of Mus musculus with 4 samples.

Results

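Expression of 7 genes of the Hedgehog pathway was followed in this mouse series: Gli1, Gli2, Gli3, Ptch1, Hhip, Smo and Sufu, 7 of the 50600 genes in the deposited table, each found by its symbol. They were chosen on the measured rise of Gli1, so the values of Gli1 are given as a description with no test. The other 6 were tested for whether further genes of the pathway changed with it.

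Hedgehog ligands bind the membrane receptor Ptch1, which otherwise holds the signal transducer Smo inactive. Active Smo releases the Gli transcription factors from their inhibitor Sufu at the primary cilium, Gli2 acts mainly as an activator, and Gli3 is processed mainly into a repressor. Gli1, Ptch1 and Hhip are themselves classical targets of the pathway, so their transcripts are widely used as a readout of it. In adult mice Gli1 marks perivascular mesenchymal cells of several organs, and Hedgehog activity restrains the formation of fat cells.

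The starting cells were adipose-derived regenerative cells (ADRCs), mesenchymal cells grown on plastic from the fat pads of mice 8 weeks old and used at passage 2. This group held 2 libraries, with the strain given as C57BL/6J, although the sample titles also call these cells an αMHC-GFP positive control. The other group, called 6F here, held 2 libraries of ADRCs of the line C57BL/6-Tg (Myh6-EGFP) MG3Tm; MG3 that had received 6 factors by lentivirus, were labelled passage 2 and were collected by flow sorting as GFP-positive cells 3 weeks later. The GFP is driven by the promoter of Myh6, a cardiac muscle myosin, so the sort itself selected for activity of that promoter, and the labels do not name the 6 factors. Strain, viral transduction, time in culture and sorting all differ between the groups and cannot be told apart. The labels do not tell whether a group's libraries stem from different cultures or animals, so p-values measure only the spread among these libraries, possibly a technical one. Column names hold no replicate number, and the letters a and b for the libraries carry no order.

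The ADRC libraries held 2273897 and 2662128 exon reads and the 6F libraries 7593772 and 6986223. Exon reads made up 14.2% and 16.1% of mapped reads in ADRCs against 60.2% and 59.6% in 6F cells, so library composition moved with the group, and its part in the results was not tested. Reads of the 2 6F libraries differed far more than counting noise, with a mean chi-square of 34.8 per gene against 1.91 between the ADRC libraries. Levels are given as CPM, edgeR's counts of exon reads scaled to a common total with TMM factors, with mean ± SD of 2 libraries. Changes are log2 fold changes of 6F minus ADRC from edgeR's quasi-likelihood test, with p-values adjusted by Benjamini-Hochberg over 12573 genes and a threshold of 0.05. In that comparison 47.0% of all tested genes passed, 24.2% higher and 22.8% lower in 6F, and the median log2 fold change was 0.07. With scaling by library size alone the median was 0.30, and the split of 3038 higher and 2870 lower genes became 3920 and 2128. In these bulk libraries, fewer cells expressing a gene and less RNA per cell cannot be told apart.

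The sequences before the start sites of the 3 tested members that rose, Ptch1, Hhip and Gli2, are shown because 2 of them are classical Gli targets. They are the 250 bases before the RefSeq start, on GRCm38.p6, all on the minus strand and written 5′ to 3′, from chr13:63565736-63565985 for Ptch1, chr8:80058009-80058258 for Hhip and chr1:119053620-119053869 for Gli2. Capitals mark the places closest to the Gli motif GACCACCCA or, on the other strand, TGGGTGGTC.
Ptch1: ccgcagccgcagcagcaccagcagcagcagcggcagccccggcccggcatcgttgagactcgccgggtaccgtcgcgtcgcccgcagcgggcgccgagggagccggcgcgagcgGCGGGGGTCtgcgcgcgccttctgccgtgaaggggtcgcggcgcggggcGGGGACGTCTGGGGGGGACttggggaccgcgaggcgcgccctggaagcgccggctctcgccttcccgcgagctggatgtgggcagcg
Hhip: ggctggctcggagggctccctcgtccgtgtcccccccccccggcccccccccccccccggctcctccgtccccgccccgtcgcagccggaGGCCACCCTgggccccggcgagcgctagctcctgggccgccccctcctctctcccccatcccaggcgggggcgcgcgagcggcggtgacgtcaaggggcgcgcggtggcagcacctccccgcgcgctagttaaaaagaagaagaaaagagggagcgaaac
Gli2: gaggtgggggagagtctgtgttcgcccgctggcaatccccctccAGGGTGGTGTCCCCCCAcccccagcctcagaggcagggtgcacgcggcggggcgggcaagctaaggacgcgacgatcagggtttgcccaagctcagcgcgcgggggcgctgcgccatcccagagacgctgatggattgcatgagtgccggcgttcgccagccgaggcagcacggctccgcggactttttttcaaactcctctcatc
The closest place had 3 mismatches in Ptch1, at 4 places, and 2 in Hhip and Gli2, and capitals run together where places overlap or adjoin. Of all 32851 RefSeq promoters, 51.8% held a place with at most 2 mismatches in these 250 bases, so such a place sets none of them apart. In the window from 250 bases before to 50 after the start, 6.7% of all promoters held the motif with at most 1 mismatch, and 0 of the 6 members with a promoter in the table did. That says only that these letters are not in this window. For Ptch1 the RefSeq start used lies inside the gene, which is annotated up to 63573598 on chromosome 13. Its stretch thus precedes an internal start.

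Of the 5 tested members that passed the low-count filter through both groups, Gli2 and Ptch1 rose, Gli3 fell, and Smo and Sufu did not pass the threshold. Hhip also rose, but entered the test only through the 6F libraries, where it is high. Gli1 itself had 1 read in the ADRC libraries together and 267 in the 6F libraries. Since 47.0% of all tested genes passed, 4 of 6 members says little by itself, and the sizes of change differ widely between members. The 4 calls were the same genes under DESeq2 size factors, scaling by library size alone, no filter on low counts and a minimum mean of 1 CPM. The same held in a DESeq2 Wald test and with 6F libraries thinned to the ADRC depth. The genes called were not the same when any library was left out, as given for each member below. All 7 members passed the low-count filter, Gli1, like Hhip, through the 6F libraries only. The libraries of the groups did not overlap for Gli2 and Ptch1, which were higher in 6F, and for Gli3 and Smo, which were lower. They did not overlap either for Gli1, on which the members were chosen, and Hhip, and nothing is read from those 2. Groups did not overlap for 77.8% of all tested genes, 40.5% higher and 37.4% lower, so the count is near the background.

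**Figure D1:**
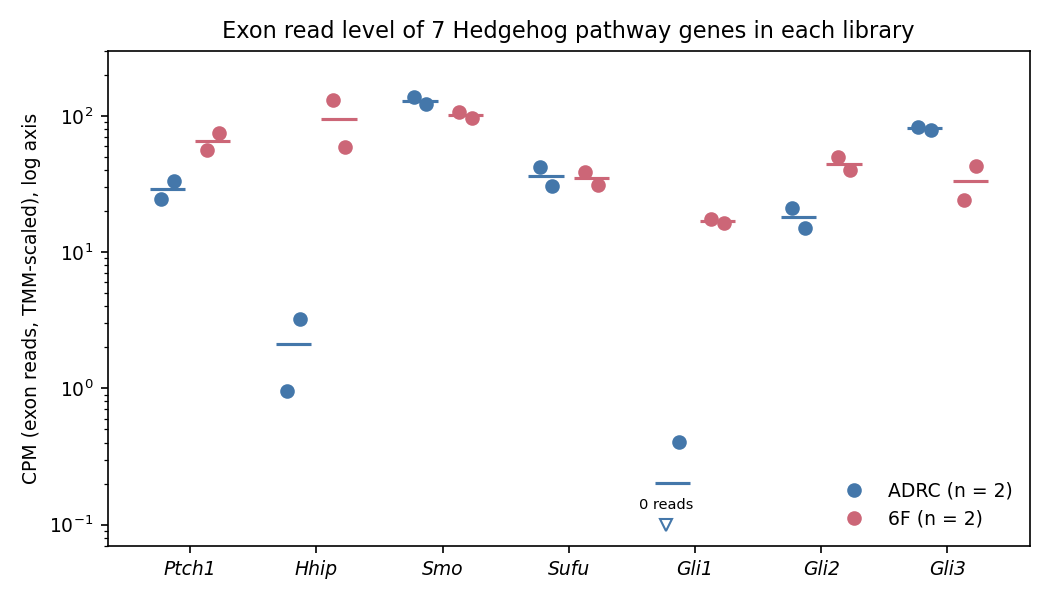
CPM of each of the 7 members in each library on a log axis (points, 2 per group; lines, group means; the open triangle marks a library with 0 reads). Gli1 and Hhip sit near the bottom in ADRCs and at 16.2 to 17.6 and 59.0 to 130.2 CPM in 6F cells, while Smo and Sufu lie at similar heights in both groups.

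Ptch1, the receptor of Hedgehog ligands and a pathway target (ENSMUSG00000021466, GRCm38 chromosome 13, 63508328 to 63573598, minus strand), had 51 and 82 reads in ADRCs and 462 and 560 in 6F cells. Its level was 24.6 and 33.2 CPM in ADRCs and 55.8 and 75.1 CPM in 6F cells, so both 6F libraries lay above both ADRC libraries. The rise was 1.17 on the log2 scale (SE 0.24, 95% interval 0.59 to 1.76, edgeR adjusted p = 0.00947). Without ADRC library a it was 0.95 and did not pass (edgeR adjusted p = 0.110).

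Hhip, a membrane protein that binds and sequesters Hedgehog ligands (ENSMUSG00000064325, chromosome 8, 79965851 to 80058006, minus strand), had 2 and 8 reads in ADRCs and 1079 and 440 in 6F cells. This is 0.963 and 3.24 CPM against 130.2 and 59.0 CPM, a low level in both ADRC libraries and a clear one in both 6F libraries. The fitted rise was 5.42 (SE 0.61, 95% interval 3.95 to 6.90, edgeR adjusted p = 0.00113). Since it passed the low-count filter through the high group only, the fit without a filter is given beside it, where it was 5.48 (edgeR adjusted p = 1.03e-13). The adjusted p without a filter was also smaller for Gli2, which passed through both groups (edgeR adjusted p = 7.13e-05). The smaller adjusted p for Hhip is therefore no added support. The ratio of pooled reads was 43.9, with an exact 95% interval of 23.8 to 91.7 that covers counting error only. That ratio was 27.0 without 6F library a, 60.5 without 6F library b, 29.2 without ADRC library a and 98.7 without ADRC library b, and the call was kept in each case. Of its exon bases 175 overlap Gm27820, a short RNA gene on the opposite strand, and reads from the strands could not be told apart.

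Smo, the 7-pass membrane protein that carries the signal inward (ENSMUSG00000001761, chromosome 6, 29735503 to 29761365, plus strand), had 284 and 299 reads in ADRCs and 878 and 720 in 6F cells. Its level was 136.7 and 121.0 CPM against 106.0 and 96.6 CPM. The 6F libraries were both lower, but the difference of -0.35 (SE 0.16, 95% interval -0.72 to 0.03) did not pass (edgeR adjusted p = 0.112). It passed when 6F library a or 6F library b was left out, at -0.40 and -0.25 (edgeR adjusted p = 0.000696 and 0.0361), a setting in which the lone 6F library is assumed to vary like the ADRC libraries.

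Sufu, the cytoplasmic inhibitor of the Gli proteins (ENSMUSG00000025231, chromosome 19, 46396896 to 46488804, plus strand), had 87 and 76 reads in ADRCs and 322 and 230 in 6F cells. At 41.9 and 30.8 CPM against 38.9 and 30.9 CPM the groups overlapped. The difference was -0.05 with a 95% interval of -0.62 to 0.51 (edgeR adjusted p = 0.866). A change of Sufu within that interval is therefore not excluded. Its sign turned to 0.18 with scaling by library size alone.

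Gli1, the Gli factor that acts as an activator and is induced by the pathway (ENSMUSG00000025407, chromosome 10, 127329882 to 127341974, minus strand), had 0 and 1 reads in ADRCs and 146 and 121 in 6F cells. These are 0 and 0.405 CPM against 17.6 and 16.2 CPM, with the 6F libraries close to each other. The ratio of pooled reads was 77.2, with an exact 95% interval of 13.7 to 3059 for counting error. Since the members were chosen on this rise, the interval is a description and no test. The single ADRC read sets this width: with ADRC library a left out the ratio was 41.1, and with ADRC library b left out Gli1 was at least 11.6-fold higher, taking a floor of 3 reads for the ADRC group. Of its 4995 exon bases 327 are shared with Arhgap9 or the antisense gene Gm47200 on the opposite strand. Arhgap9 itself had 0 and 1 reads in ADRCs and 1 and 4 in 6F cells.

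Gli2, the main activator among the Gli factors (ENSMUSG00000048402, chromosome 1, 118834132 to 119053619, minus strand), had 44 and 37 reads in ADRCs and 410 and 296 in 6F cells. Its level was 21.2 and 14.97 CPM in ADRCs and 49.5 and 39.7 CPM in 6F cells, with no overlap. The rise was 1.31 (SE 0.25, 95% interval 0.71 to 1.91, edgeR adjusted p = 0.00707). Without ADRC library b it was 1.05 and did not pass (edgeR adjusted p = 0.0859).

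Gli3, processed mainly into the repressor form (ENSMUSG00000021318, chromosome 13, 15463235 to 15730026, plus strand), had 173 and 194 reads in ADRCs and 199 and 320 in 6F cells. Given the deeper 6F libraries this is 83.3 and 78.5 CPM against 24.0 and 42.9 CPM, so both 6F libraries were lower and 6F library b stood nearer to ADRCs. Gli3 fell by 1.27 on the log2 scale (SE 0.29, 95% interval -1.97 to -0.58, edgeR adjusted p = 0.0128). The fall was -1.26 without ADRC library a and -1.34 without ADRC library b, where it did not pass (edgeR adjusted p = 0.0747 and 0.0631), and it was -0.90 with 6F library a left out and -1.72 with b left out. Of its 9589 exon bases 188 are shared with Gm6556 or Gm48343. These transcript levels do not tell the full-length from the processed Gli3 protein.

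**Figure D2:**
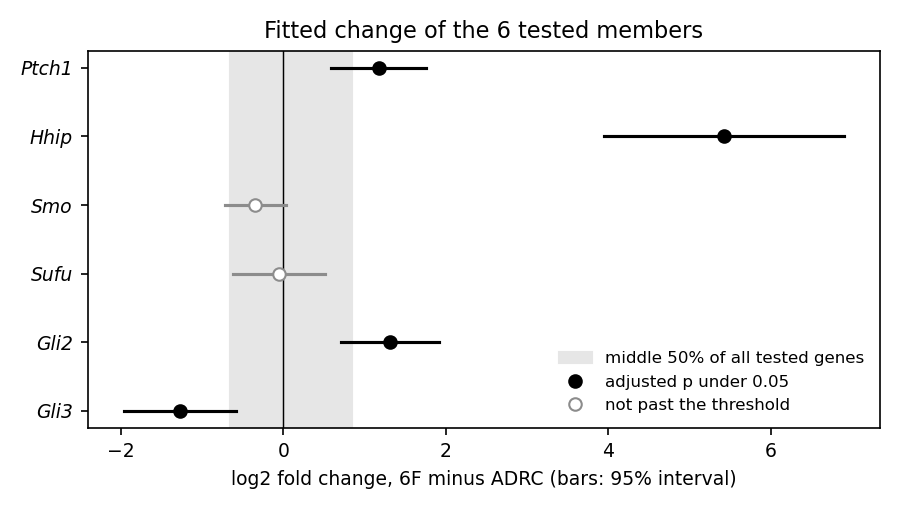
Fitted log2 fold change (6F minus ADRC) of the 6 tested members with 95% intervals; filled points passed the adjusted threshold of 0.05 and the grey band spans the middle 50% of all tested genes (-0.65 to 0.85). Hhip at 5.42 lies far to the right, Gli2 and Ptch1 lie just beyond the band, and Gli3 lies on the other side at -1.27.

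The 2 6F libraries differed from each other in several members. Hhip was 2.21 times as high in 6F library a as in b, and Gli3 in a was 0.560 of its level in b. Gli1 differed least, with a ratio of 1.09, followed by Smo at 1.10. Against the mean of the ADRC libraries, Hhip was 62.0-fold higher in 6F library a and 28.1-fold in b, Ptch1 1.93-fold and 2.60-fold, and Gli2 2.74-fold and 2.20-fold.

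Levels between genes were compared as CPM per kilobase of exon. In ADRCs the order was Smo (34.1 ± 2.94, SD, n = 2), Gli3 (8.44 ± 0.353), Sufu (5.23 ± 1.13), Ptch1 (3.30 ± 0.698), Gli2 (2.63 ± 0.639), Hhip (0.231 ± 0.177) and Gli1 (0.0405 ± 0.0573). Only the neighbours Ptch1 and Gli2 overlapped. In 6F cells the order was Smo (26.8 ± 1.76), Hhip (10.4 ± 5.55), Ptch1 (7.48 ± 1.57), Gli2 (6.49 ± 1.01), Sufu (5.02 ± 0.816), Gli3 (3.49 ± 1.39) and Gli1 (3.39 ± 0.197). There, Smo stood apart, Hhip overlapped with Ptch1, Ptch1 with Gli2, Sufu with Gli3 and Gli3 with Gli1, while Gli2 and Sufu did not overlap. Smo, the most abundant member in both groups, stood at the 89.4 and 87.7 percentile of tested genes in the ADRC libraries and at the 86.3 and 85.9 percentile in the 6F libraries. Gli1 stood at the 2.5 and 2.9 percentile in ADRCs and at the 33.9 and 31.0 percentile in 6F cells.

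Ratios between members within a library do not depend on the scaling between libraries. The level of Gli2 per kilobase was 0.355 and 0.266 of that of Gli3 in ADRCs, and 2.88 and 1.29 times that of Gli3 in 6F cells, so the order of these factors turned in both 6F libraries. Gli2 relative to Sufu was 0.511 and 0.492 in ADRCs and 1.29 and 1.30 in 6F cells. Ptch1 relative to Smo went from 0.0776 and 0.119 to 0.227 and 0.336. Hhip relative to Ptch1 went from 0.0378 and 0.0940 to 2.25 and 0.757, so Hhip exceeded Ptch1 in 6F library a only. Sufu relative to Smo stayed close, at 0.167 and 0.138 in ADRCs and 0.200 and 0.174 in 6F cells.

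**Figure D3:**
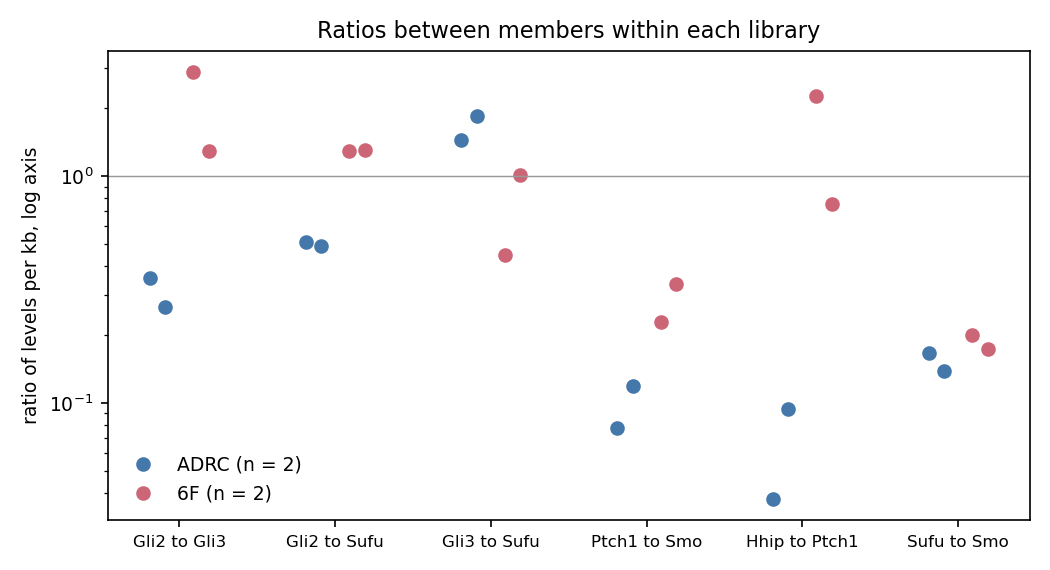
Ratio of the per-kilobase levels of member pairs within each library on a log axis (points, 2 libraries per group; grey line, equal levels). The ratio of Gli2 to Gli3 lies at 0.266 and 0.355 in ADRCs and above 1 in both 6F libraries, and the ratio of Sufu to Smo lies between 0.138 and 0.200 in all 4.

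The authors' deposited table, which compares the groups by a test named EDGE, gave in its folds the same direction for 6 members, and for Sufu a fold of 1.02. In the authors' deposited table the fold was 10.4 for Gli1, 19.9 for Hhip, 2.45 for Gli2, 2.23 for Ptch1, -2.19 for Gli3 and -1.20 for Smo, a minus sign marking a fall. The false discovery rate in the authors' deposited table was 1 for all 7, and 421 of 32555 genes with exons had one under 0.05. The authors' group means of normalized RPKM were 0.155 and 4.08 for Hhip and 3.33 and 1.34 for Gli3, in ADRCs and 6F cells in the authors' deposited table. Before that normalization the group means of RPKM, which divide by all mapped reads, ran the other way for the members that were lower: the authors' deposited table gives 1.17 and 2.25 for Gli3 and 4.74 and 17.3 for Smo, and 0.721 and 3.25 for Sufu.

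The rest of the pathway was read from lists of ligands and their release, co-receptors, signal transduction and reported targets. Together these held 54 genes besides the members, of which 44 were tested, 11 were higher, 4 were lower and 29 did not pass. Their median log2 fold change was 0.19, beside 0.07 over all tested genes, and the 15 that passed stand against a background of 47.0%. Without ADRC library a or b the list had 7 and 6 calls, and without 6F library a or b 26 and 27.

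Of the 9 genes for ligands and their release, 5 were tested and 3 rose, beside 24.2% higher over all tested genes. Of these 3, Disp2 and Scube1 passed the low-count filter only through the 6F libraries, where they are high. The ligands themselves were at or near the floor: Shh had 0 reads in all 4 libraries, Ihh had 0 and 0 reads in ADRCs and 4 and 1 in 6F cells, and Dhh had 3 and 0 reads against 2 and 0. A count of 0 allows up to 0.660 CPM in the ADRC group and 0.191 CPM in the 6F group, counting error only. Disp2, a relative of the ligand exporter Disp1, had 1 read in each ADRC library and 643 and 720 reads in the 6F libraries. Its pooled ratio was 197 (exact 95% interval 54.4 to 1628, edgeR adjusted p = 0.000109). Scube1, a secreted protein of the family that helps ligand release, had 1 read in each ADRC library and, in 6F cells, 67 and 37. The ratio of its pooled reads was 15.03 (exact 95% interval 4.06 to 125.7, edgeR adjusted p = 0.00581), and its call was lost without ADRC library b (edgeR adjusted p = 0.0565). Without a low-count filter both were also called (edgeR adjusted p = 6.96e-17 for Disp2 and 0.000143 for Scube1). Adjusted p-values were smaller there for Gli2 too, which passed through both groups, so they add no support. Disp1, which exports lipid-modified ligands, had 142 and 155 reads against 798 and 928, and rose by 0.75 (SE 0.19, edgeR adjusted p = 0.0179), a call lost without ADRC library a or b. Hhat, the enzyme that attaches palmitate to the ligands, was at 11.6 ± 5.46 CPM in ADRCs and 14.6 ± 1.79 CPM in 6F cells and did not pass, and Scube3 was at 3.02 ± 0.873 and 2.02 ± 1.32 CPM.

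All 5 co-receptors and ligand-binding membrane proteins of the list were tested, and 2 rose and 1 fell, with a median of 0.41. Over all tested genes 24.2% were higher and 22.8% lower, so these counts say little by themselves. The co-receptor Gas1 had 59 and 84 reads against 527 and 846, a rise of 1.50 (SE 0.31, edgeR adjusted p = 0.00948). The co-receptor Boc had 65 and 63 reads against 343 and 386, a rise of 0.72 (SE 0.22, edgeR adjusted p = 0.0345) that the DESeq2 Wald test did not call (adjusted p = 0.0815). The third co-receptor, Cdon, did not pass, at 113.4 ± 2.39 CPM in ADRCs and 88.5 ± 40.3 CPM in 6F cells. Lrp2, an endocytic receptor that also binds Shh, had 139 and 117 reads in ADRCs and 26 and 60 in 6F cells and fell by 3.36 (SE 0.44, edgeR adjusted p = 0.00184). Gpc3, a glypican that competes for ligand, was at 24.7 ± 2.26 and 33.1 ± 35.7 CPM, with 65 reads in 6F library a and 435 in b. The calls of Gas1 and Boc were lost without ADRC library a or b.

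Of 26 transduction genes 25 were tested, and 4 rose while 21 did not pass, beside 47.0% passing over all tested genes, with a median of 0.14. At an unadjusted p under 0.05, edgeR placed 6 higher and 2 lower, as it did 6920 of all 12573 genes in either direction, and the DESeq2 Wald test called 2 higher and 0 lower after adjustment. The β-arrestin Arrb1 rose by 1.59 (SE 0.37, edgeR adjusted p = 0.0139), with 29 and 34 reads in ADRCs and 235 and 410 in 6F cells. Prkacb, a catalytic subunit of the protein kinase A that primes Gli processing, rose by 1.01 (SE 0.15, edgeR adjusted p = 0.00286), with 203 and 237 reads against 1700 and 1385. Evc, a ciliary partner of Smo, rose by 0.72 (edgeR adjusted p = 0.0268), and Rab23, a small GTPase that opposes the pathway, by 0.66 (edgeR adjusted p = 0.0268). Gnas, the stimulatory G protein subunit, was at 1086 ± 4.13 and 1065 ± 156 CPM and Prkar1a, the regulatory subunit of protein kinase A, at 399.6 ± 8.86 and 472.0 ± 78.4 CPM, and neither passed. The 4 calls were all lost when either ADRC library was left out, with 3 transduction genes at an unadjusted p under 0.05 in edgeR in each case, and those of Evc and Rab23 also in the DESeq2 Wald test.

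Of 14 reported targets besides Gli1, Ptch1 and Hhip, 9 were tested, and 2 rose, 3 fell and 4 did not pass, with a median of -0.43. Over all tested genes 24.2% were higher and 22.8% lower, with a median of 0.07. Bcl2, which blocks apoptosis, rose by 2.04 (SE 0.27, edgeR adjusted p = 0.00185), with 27 and 32 reads in ADRCs and 527 and 324 in 6F cells. Ccnd1, a cyclin of the first phase of the cell cycle, rose by 0.53 (edgeR adjusted p = 0.0455), a call lost with a minimum mean of 1 CPM (edgeR adjusted p = 0.0510), in the DESeq2 Wald test and without ADRC library a or b. Foxm1, a transcription factor of dividing cells, fell by 4.71 (SE 0.23, edgeR adjusted p = 0.000109), with 271 and 293 reads in ADRCs and 33 and 41 in 6F cells. Snai1, a repressor known from epithelial to mesenchymal transition, fell by 2.72 (SE 0.22, edgeR adjusted p = 0.000401), and Ccne1, the cyclin of entry into DNA replication, fell by 1.60 (SE 0.25, edgeR adjusted p = 0.00372). Ccnd2 was at 956.6 ± 6.20 and 1183 ± 201 CPM and Rab34 at 67.0 ± 14.5 and 49.1 ± 6.99 CPM, and neither passed. Beside Foxm1 and Ccne1, all 6 cell-cycle markers were lower in 6F cells. Their summed level was 898.3 to 985.6 CPM in ADRCs and 31.9 to 42.1 CPM in 6F cells. Of the 6, Birc5 and Aurkb passed the low-count filter only through the ADRC libraries, where they are high. The part of these markers in the falls of Foxm1 and Ccne1 was not tested. Targets of the pathway differ between tissues, so the list mixes genes known from several of them.

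**Figure D4:**
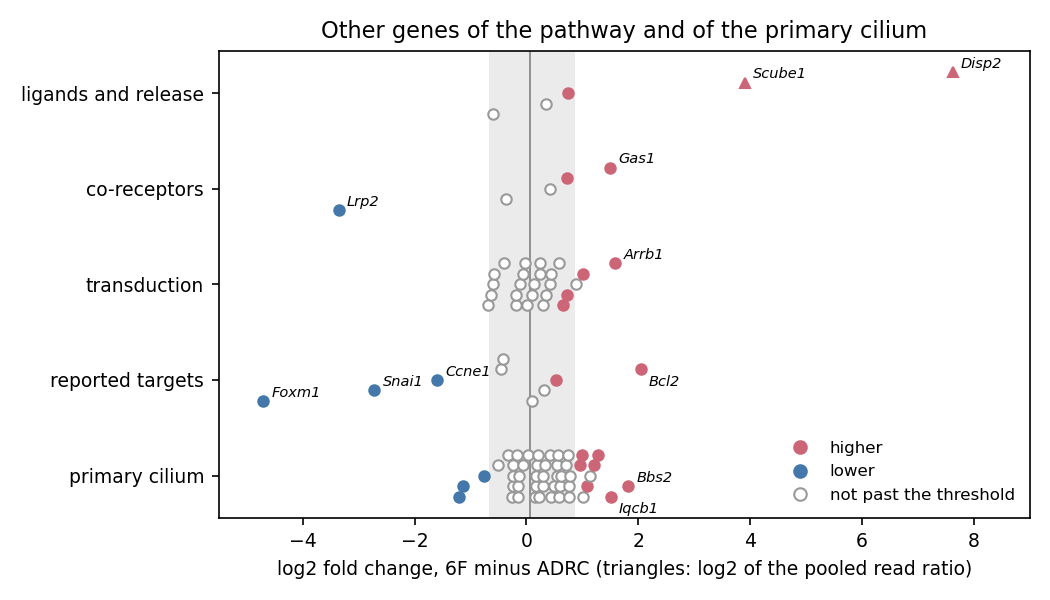
Log2 fold change (6F minus ADRC) of each tested gene in 4 Hedgehog lists and the primary cilium list; red and blue points passed as higher and lower, open points did not pass, the grey band spans the middle 50% of all tested genes (-0.65 to 0.85) and the line their median of 0.07. Disp2 and Scube1, with 1 read in each ADRC library, are drawn at the log2 of their pooled ratio. Disp2 lies farthest right and Foxm1 farthest left.

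The primary cilium, the cell-surface antenna in which vertebrate Hedgehog signalling runs, was read from 47 genes, all tested. Of these 7 rose, 3 fell and 37 did not pass, with a median of 0.33, beside 47.0% passing and a median of 0.07 over all tested genes. With scaling by library size alone 15 rose and 3 fell, the DESeq2 Wald test called 4 higher and 2 lower, and without 6F library a or b there were 21 and 23 calls. Bbs2, a subunit of the BBSome that carries ciliary cargo, rose by 1.82 (edgeR adjusted p = 0.0271), with 4 and 9 reads in ADRCs and 105 and 55 in 6F cells, and it too passed the low-count filter through 6F only. Iqcb1, a protein of the ciliary base, rose by 1.51 (edgeR adjusted p = 0.0387), and the BBSome subunit Bbs9 by 1.27 (edgeR adjusted p = 0.0342). Cc2d2a, of the ciliary transition zone, fell by 1.21 (SE 0.26, edgeR adjusted p = 0.0113), with 61 and 65 reads against 83 and 105. The kinesin subunits that drive transport up the cilium did not pass: Kif3b was at 47.0 ± 5.13 and 54.6 ± 1.47 CPM and Kifap3 at 41.0 ± 1.50 and 58.1 ± 8.65 CPM. Without ADRC library a or b edgeR called 0 of the 47, with 5 and 8 at an unadjusted p under 0.05.

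The label of mesenchymal cells was set against markers. The 8 mesenchymal markers summed to 3523 to 3653 CPM in ADRCs and 2204 to 2737 CPM in 6F cells, with 2 higher and 4 lower. Each had at least 1 read in every library. Of the 2 higher, Nt5e passed the low-count filter through 6F only, with 6 and 1 reads in ADRCs and 95 and 81 in 6F cells. Beside the members, 2 of 5 tested pericyte markers were higher and 1 lower, and Kcnj8 was at 0 in 1 ADRC library. The 6 pericyte genes summed to 75.7 to 95.3 CPM against 351.2 to 561.3 CPM, a rise carried by Mcam alone. Mcam was at 25.8 ± 5.03 CPM in ADRCs and 399.5 ± 154.5 CPM in 6F cells. Notch3 rose from 23.5 ± 3.50 to 38.7 ± 0.725 CPM, and Cspg4 fell from 30.6 ± 4.37 to 10.4 ± 5.54 CPM. All 4 tested cardiomyocyte markers were higher, with sums of 46.7 to 47.3 CPM against 4293 to 4364 CPM, while Nkx2-5 was at 0 in all 4 libraries. Myh6 is one of the 4 and enters these sums, with 9 and 11 reads in ADRCs and 12810 and 6489 in 6F cells. The 6F cells were sorted on GFP driven by its promoter, so nothing is read from its rise. Tnnt2, Actc1 and Ttn rose by 7.29, 7.28 and 2.34 on the log2 scale. The part of the sort in these rises was not tested. Of 4 smooth muscle markers 2 were higher, with sums of 3594 to 3643 CPM and 6242 to 6917 CPM. Myh11 rose from a mean of 28.9 to 3002 CPM and Cnn1 from 75.6 to 326.4 CPM. Acta2, which made up most of the sum in ADRCs, did not pass, at 3497 and 3225 CPM, and neither did Des. The 6 leukocyte markers measured summed to 244.5 to 256.5 CPM in ADRCs, 12.6 CPM in 6F library a, where Ptprc and Adgre1 were at 0, and 112 CPM in 6F library b. Endothelial markers summed to 38.5 to 41.3 CPM and 12.1 to 27.9 CPM, with Cldn5 and Tie1 at 0 in 6F library a. Adipocyte markers summed to 40.4 to 44.9 CPM and 8.72 to 35.1 CPM with Lep at 0 in all 4 libraries and Cidec at 0 in all but 6F library a. Most of that sum was Fabp4, which fell from 42.0 ± 2.93 CPM in ADRCs to 12.6 ± 10.7 CPM in 6F cells. Plin1, which passed the low-count filter through 6F only, went the other way, with 1 and 1 reads against 41 and 18. Adipoq, not tested, had 0 and 1 reads in ADRCs and 75 and 9 in 6F cells. The Schwann cell markers Sox10 and S100b summed to 3.24 to 5.78 CPM and 2.05 to 3.62 CPM, and epithelial markers to 26.5 to 27.5 CPM and 7.48 to 17.0 CPM with Cdh1 at 0 in both 6F libraries and Epcam in b. Beside these counts, 24.2% of all tested genes were higher and 22.8% lower. The part of these cell types in the changes of the members was not tested.

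The protein-coding genes whose pattern over the 4 libraries lay closest to that of Gli1 were Hid1, Dtna, B3gnt5, 3830417A13Rik and Tpbgl. Likeness was the Euclidean distance between log2 CPM values centred per gene, and these 5 lay within 0.264 to 0.348. With 2 groups of 2 libraries, many genes that were near 0 in ADRCs share such a pattern, and 81 protein-coding genes lay within a distance of 1. Hhip was one of them, at 0.86 and rank 49 of 12179, while Gli2 and Ptch1 ranked 1976 and 2003, at distances of 3.81 and 3.82. The members were chosen on the values of Gli1, and Hhip passed the low-count filter through 6F only. Nothing is therefore read from its rank. Hid1 had 1 and 4 reads in ADRCs and 361 and 244 in 6F cells, and Dtna, which encodes dystrobrevin alpha, had 4 and 10 against 1065 and 728.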

How the data were processed

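RNA was depleted of ribosomal RNA and sequenced from 2 ADRC and 2 6F libraries, grouped by the sample titles; the kit is not named as strand-marking per the labels' protocols. Per the submitters' processing notes the build was GRCm38. Aligner and counter were not given in the sources used. The authors deposited 1 table, which holds total exon reads per library, whole-number counts used as deposited. The authors also deposited group means of RPKM, a signal made by normalizing these RPKM, and for their EDGE comparison a fold change, held as a signed score, and a p-value with a false discovery rate, per the file headers. A further 52 per-sample columns, 13 per library, were not used. Of 50600 genes, 18045 had an exon length of 0 and were left out. Gene IDs were matched to GENCODE M21 for positions (99.5% found). Mapped reads were recovered from the authors' mean RPKM.

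Counts were analysed with edgeR 4.0.16, limma 3.58.1 and DESeq2 1.42.0 in R 4.3.3: filterByExpr with a minimum count of 10, TMM, quasi-likelihood test, Benjamini-Hochberg over 12573 genes. The SE of a log2 fold change is its size over the square root of F. The same procedure was run on simulated data holding 200 changed genes and the same spread in both groups. In the real data the 6F libraries varied more and far more genes passed, so that run says little about them. Pooled read ratios use scaled library sizes with exact Clopper-Pearson 95% intervals, and a count of 0 was set to a floor of 3 reads. Depth was 2273897 to 7593772 exon reads. Promoters are from RefSeq on GRCm38.p6, with 6 members found. Alternatives were DESeq2 size factors, library size alone, no filter, a minimum mean of 1 CPM, a DESeq2 Wald test, a 2-fold change, each library left out and, chosen after seeing the data, the 6F libraries thinned to 2468012 reads. Members and lists were chosen with earlier results of these data known. Genes named are all members, up to 4 called and 2 uncalled genes of each list and the 5 nearest to Gli1; Ccnd1, Arhgap9 and the ligands at or near 0 reads were named after their values were seen. Some genes of the lists are not reported here and enter no list count. Figures were drawn with matplotlib 3.10.9.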

Additional observations from a re-analysis of the deposited data

How the results depend on the processing

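Leaving out each library in turn gave 2385 to 8572 calls over all genes against 5908, 2 to 5 members against 4, 6 to 27 other pathway genes against 15 and 0 to 23 cilium genes against 10. Calls were fewer whenever an ADRC library was left out and more whenever a 6F library was; the lone library of a group is then assumed to vary like the other group. Of the 21 pathway and cilium genes named with a fitted change that passed, 14 lost the call without ADRC library a and 14 without ADRC library b, 0 without either 6F library, 6 in the DESeq2 Wald test, 2 after thinning (Bbs2 and Iqcb1) and 1 with the minimum mean of 1 CPM, all with the same sign. Lrp2, Bcl2, Foxm1, Snai1 and Ccne1 passed under each of these and the other scalings and filters. Hhip and Disp2 did too, but they entered the test only through the 6F libraries, where they are high, so nothing is read from that. The cilium count was 18 with library size alone and 6 in the DESeq2 Wald test; the other counts stayed within 1.5 times under the other scalings, filters and tests, as did those of all genes and of members at a 2-fold change, which was not run for the lists. Sufu, near 0, changed sign to 0.18 with library size alone, 0.00 without a filter and 0.04 after thinning, and ranged from -0.29 to 0.15 with a library left out; the cause was not tested. No paired analysis was possible because the columns carry no replicate numbers. The alternatives with unique exon reads and the description of intron reads were not run, since 1 column per library was used. With 1 ADRC read for Gli1 and 2 each for Disp2 and Scube1, depth limits these ratios to their wide intervals.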
